A study of Mus musculus with 12 samples.

Results

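The Cyp4 family encodes cytochrome P450 enzymes of the endoplasmic reticulum that add a hydroxyl group to the far, or omega, end of fatty acids and eicosanoids. Expression of 10 members, out of 50559 genes in the deposited tables, was followed in mouse liver: Cyp4a10, Cyp4a12a, Cyp4a12b, Cyp4a14, Cyp4a31, Cyp4a32, Cyp4f13, Cyp4f14, Cyp4f15 and Cyp4v3. They are taken by symbol, and the choice of this family was made with earlier results of these data known. RNA was sequenced from liver tissue of C57BL/6N mice in 4 groups of 3 libraries. NCD mice ate normal chow, and HFD mice ate a high-fat diet with 60% of its energy from fat. HFD+C1 and HFD+C2 mice ate the high-fat diet and were injected intraperitoneally with compound C1 or C2 at 5 mg/kg per day, and feeding and injection lasted 12 weeks. The series title describes the compounds as CYP4A inhibitors, so their stated targets are the proteins of 6 of the 10 genes. The labels give no structure for C1 or C2, no age or sex for the mice, and no vehicle injection for NCD or HFD.

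Omega-hydroxylation is a minor route of fatty acid breakdown that is known to grow when fatty acids are in excess. The product is oxidised further to a dicarboxylic acid, which peroxisomes shorten. In mouse liver Cyp4a10 and Cyp4a14 are textbook targets of PPARA, the nuclear receptor for fatty acids, whereas Cyp4a12a is known for its higher level in males and for hydroxylating arachidonic acid. Cyp4f enzymes act on leukotrienes and on the side chains of fat-soluble vitamins, and Cyp4v3 is the mouse counterpart of a human medium-chain fatty acid hydroxylase.

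The 6 Cyp4a genes lie side by side on chromosome 4 between 115299046 and 115621602 (GRCm38), Cyp4f13, Cyp4f14 and Cyp4f15 lie on chromosome 17, and Cyp4v3 lies on chromosome 8. Several Cyp4a genes are near copies, which bears on how reads can be assigned. Coding sequences of Cyp4a12a and Cyp4a12b were 98.5% identical, with 23 differing bases of 1524. Cyp4a10 was 97.2% identical to Cyp4a32 and 96.6% to Cyp4a31. The stretches below are the 90 coding bases, within 1 exon, that hold the most differences in each set, and capitals mark the bases that differ. They come from exon 6 of Cyp4a12a (chr4:115326659-115326748, plus strand) and Cyp4a12b (chr4:115432912-115433001, plus strand), and from exon 2 of Cyp4a10 (chr4:115519630-115519719, plus strand), Cyp4a31 (chr4:115565010-115565099, plus strand) and Cyp4a32 (chr4:115602260-115602349, plus strand), in the transcripts of GENCODE M21.
Cyp4a12a: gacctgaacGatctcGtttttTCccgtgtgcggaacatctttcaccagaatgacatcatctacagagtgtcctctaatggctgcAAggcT
Cyp4a12b: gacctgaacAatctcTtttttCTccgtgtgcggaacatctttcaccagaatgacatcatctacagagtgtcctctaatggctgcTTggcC
Cyp4a10: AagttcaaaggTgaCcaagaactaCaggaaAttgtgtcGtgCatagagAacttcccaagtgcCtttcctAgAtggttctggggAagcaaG
Cyp4a31: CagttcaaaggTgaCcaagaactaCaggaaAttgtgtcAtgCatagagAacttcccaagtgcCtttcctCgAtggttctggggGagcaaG
Cyp4a32: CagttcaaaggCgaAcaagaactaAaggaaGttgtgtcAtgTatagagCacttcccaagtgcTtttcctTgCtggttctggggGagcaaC
Even there, Cyp4a12a and Cyp4a12b differed at 7 of 90 bases, and the other 3 genes at 13. Over the whole coding sequence, 41.3% of the 100-base windows of Cyp4a12a occurred unchanged in another Cyp4 transcript. This share was 41.3% for Cyp4a12b, 20.1% for Cyp4a32, 17.9% for Cyp4a10 and 13.9% for Cyp4a31, and 0% for the other 5 genes. For windows of 50 bases it was 54.8% for Cyp4a12a and Cyp4a12b, 46.7% for Cyp4a32, 40.5% for Cyp4a10 and 31.6% for Cyp4a31, 0.41% to 3.87% for Cyp4a14, Cyp4f13, Cyp4f14 and Cyp4f15, and 0% for Cyp4v3. The read length is not given in the sources used here. The files do not state how such reads were assigned, so values for single near copies are uncertain, and the sums Cyp4a12a plus Cyp4a12b and Cyp4a10 plus Cyp4a31 plus Cyp4a32 are given beside them.

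RefSeq promoter entries (GRCm38.p6) matched 5 of the 10 genes: Cyp4a32, Cyp4v3, Cyp4f15, Cyp4f14 and Cyp4f13. The 250 bases upstream of the start are printed for Cyp4f14, the gene called for the diet below, at chr17:32917357-32917606 on the minus strand, and for Cyp4a32, the Cyp4a gene with an entry, at chr4:115600688-115600937 on the plus strand. Capitals mark a motif match.
Cyp4f14: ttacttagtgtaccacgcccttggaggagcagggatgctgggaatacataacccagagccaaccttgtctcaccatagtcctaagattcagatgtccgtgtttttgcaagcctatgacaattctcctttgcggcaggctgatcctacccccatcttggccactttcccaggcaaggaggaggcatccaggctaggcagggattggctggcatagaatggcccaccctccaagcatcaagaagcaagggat
Cyp4a32: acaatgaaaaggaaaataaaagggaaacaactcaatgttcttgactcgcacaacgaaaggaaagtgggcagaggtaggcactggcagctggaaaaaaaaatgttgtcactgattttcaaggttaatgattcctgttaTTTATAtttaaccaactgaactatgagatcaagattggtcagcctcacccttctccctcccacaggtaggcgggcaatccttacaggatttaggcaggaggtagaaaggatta
The motifs searched on both strands were the DR1 element of receptors such as PPARA (2 copies of AGGTCA with 1 base between them, and a relaxed form of it), TTCNNNGAA for STAT factors, TATAAA, and CAAAGTCCA for HNF4, which can overlap the DR1 element. The strict and relaxed DR1 forms were held by 0.0335% and 0.46% of 32851 promoter windows of this length, and CAAAGTCCA by 0.384%. The match in Cyp4a32 is TATAAA on the opposite strand, at positions -113 to -108 from the start, a motif held by 12.4% of these windows. Cyp4f14 held none of the motifs in this window, and among the windows of the other 3 genes Cyp4f13 alone had a match, TTCAGAGAA at positions -22 to -14, a form of TTCNNNGAA, which 7.02% of windows held.

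The shallowest library, NCD replicate 2, had 4281210 reads in genes and the deepest, HFD replicate 1, had 32124248. Levels below are counts scaled to a common number of reads in genes (CPM), and a count of 3, taken as the floor, equals 0.0934 to 0.701 CPM. Reads are not counts of separate molecules, so this floor covers counting error only. All 6 hepatocyte markers were present, with summed levels of 39794 to 86537 CPM in NCD and 70588 to 143607 CPM in the other groups. NCD replicate 1 stood apart: 58.2% of its reads were not assigned to a gene, against 27.3% to 47.1% in the other 11 libraries. Of all its reads, 23.2% fell in no annotated feature, 21.5% were unmapped, 7.88% were ambiguous between genes and 5.54% mapped to several places. Its Alb (albumin) level was 12718 CPM against 44055 CPM and 50024 CPM in NCD replicates 3 and 2. HFD+C2 replicate 1 came next, with 47.1% of its reads not assigned to a gene. In bulk liver tissue, fewer cells of a type and less RNA per cell cannot be told apart. No label says that the libraries of a group came from separate animals beyond calling them biological replicates, and the p-values measure the spread between these libraries only.

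All 10 genes were detected in all 12 libraries. Levels can be compared between genes only per length, and per coding kilobase the highest in NCD was Cyp4v3, at 345 ± 77.8 CPM per kilobase (SD, n = 3). Cyp4f14 followed at 191 ± 30.0, then Cyp4a12a at 137 ± 37.3, Cyp4a14 at 110 ± 28.5 and Cyp4a10 at 87.7 ± 32.6 CPM per kilobase. Cyp4f15, Cyp4a12b and Cyp4f13 lay between 28.9 and 32.1 CPM per kilobase, Cyp4a32 at 9.76 and Cyp4a31 at 1.26. Among these neighbours the NCD libraries of Cyp4f14 and Cyp4a12a overlapped, Cyp4a12a, Cyp4a14 and Cyp4a10 overlapped with one another, and so did Cyp4f15, Cyp4a12b and Cyp4f13, whereas Cyp4v3 lay above all others. In HFD the order differed: Cyp4v3 (219 CPM per kilobase) was followed by Cyp4a10 (166) and Cyp4a14 (145), with Cyp4f14 at 82.3, Cyp4a12a at 49.4 and Cyp4a12b at 5.36. Reads can also fall outside the coding part, and whole transcripts differ more in length. The chosen transcript had 3808 bases for Cyp4v3, against 2109 for Cyp4a10 and 2221 for Cyp4f14. The order between genes, with Cyp4v3 first, therefore holds for coding length only. Per base of the chosen transcript, the mean of Cyp4a10 lay above that of Cyp4v3 in HFD, HFD+C1 and HFD+C2, though not in NCD. The order was not tested.

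**Figure D1:**
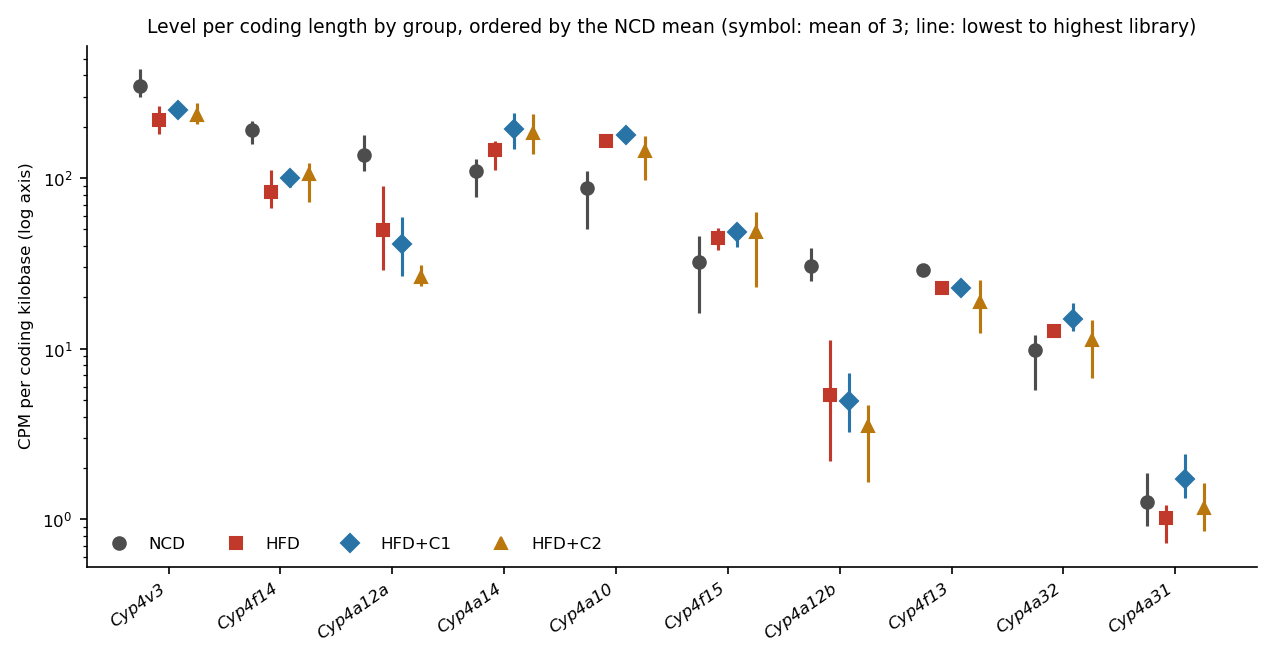
Level of each Cyp4 gene as CPM per coding kilobase (log axis) by group, with symbols for the mean of 3 libraries and lines from the lowest to the highest library, genes ordered by their NCD mean. Cyp4a12b fell from 30.4 CPM per kilobase in NCD to 3.50 in HFD+C2 by group mean, while Cyp4v3 had the highest mean per coding length in every group.

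The make-up of the family's counts differed too. Cyp4a10 and Cyp4a14 held 8.73% and 11.4% of the family's counts in NCD and 22.0% and 19.5% in HFD, as means of 3 libraries. Cyp4a12a held 13.6% in NCD and 6.22% in HFD, and Cyp4f14 20.2% and 11.0%. Cyp4v3 held the most in both, at 35.7% and 29.5%. Summed over the 10 genes, NCD libraries held 1376 to 1687 CPM and HFD libraries 1068 to 1303 CPM. The sum was 1306 to 1354 CPM with C1 and 907 to 1363 CPM with C2. Every high-fat library lay narrowly or clearly below every NCD library on this scale, and the sum was not tested. The separation depends on the scaling. TMM scaling, used by edgeR in the fits below, multiplied library sizes by 1.16 in NCD replicate 1 and 0.960 in HFD replicate 2 for the diet comparison. Those factors put the sum of HFD replicate 2 above that of NCD replicate 1.

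The first comparison asked what the high-fat diet did, HFD against NCD. The quasi-likelihood test of edgeR was used, with p adjusted by Benjamini and Hochberg's method over all 13864 genes tested, and a gene was called at an adjusted p under 0.05. Of the 10 Cyp4 genes 1 was called: Cyp4f14 fell by 1.00 on the log2 scale (standard error 0.23), a level 2.00-fold lower than on chow. Over all genes tested, 6.14% were called, 3.48% lower and 2.65% higher in HFD. Of the other 9 genes, Cyp4a12b, Cyp4a10 and Cyp4a12a had the largest log2 changes (-2.31, 1.12 and -1.27), and none passed, so that the family held values in both directions with a median of -0.11 beside -0.02 for all genes. On CPM without TMM scaling, the groups did not overlap for 7 of the 10 genes, 5 lower and 2 higher in HFD. The share over all genes tested on that scale was 38.9% (27% lower and 11.9% higher). The TMM factors brought Cyp4f13 and Cyp4v3, both among the lower genes, into overlap.

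Cyp4f14, a leukotriene and vitamin side-chain hydroxylase, stood at 339, 247 and 313 CPM in NCD replicates 1, 2 and 3, and at 106, 175 and 108 CPM in HFD replicates 1, 2 and 3. Every HFD library lay below every NCD library. The fitted change had a 95% interval from -1.53 to -0.47 and an adjusted p of 0.0465 by edgeR. The call was lost without NCD replicate 3 (-0.92, adjusted p = 0.0837), HFD replicate 1 (-0.89, adjusted p = 0.224), HFD replicate 2 (-1.24, adjusted p = 0.0641) or HFD replicate 3 (-0.88, adjusted p = 0.186), with limma on log2(CPM + 1) (adjusted p = 0.0530), and under the replicate block (adjusted p = 0.0714). Without NCD replicate 1 it was -0.98 with an adjusted p of 0.00668.

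Cyp4a12a, the male-predominant arachidonic acid hydroxylase, stood at 167, 273 and 184 CPM in the 3 NCD libraries and at 44.1, 137 and 44.9 CPM in the 3 HFD libraries. Its near copy Cyp4a12b stood at 37.9, 59.6 and 41.6 CPM in NCD and at 3.36, 17.2 and 3.97 CPM in HFD. For both genes all HFD libraries lay below all NCD libraries, and HFD replicate 2 was more than 3 times as high as the other HFD libraries. The fitted log2 changes were -1.27 (standard error 0.43) for Cyp4a12a and -2.31 (standard error 0.57) for Cyp4a12b, with adjusted p of 0.104 and 0.0506 by edgeR, and their summed counts changed by -1.42 (standard error 0.45, adjusted p = 0.0870). Without HFD replicate 2 both passed, at -1.99 (adjusted p = 0.0392) and -3.41 (adjusted p = 0.00885), where 0.94% of all genes were called. That library stands out by the values of these same genes, so this fit is no separate support. Both also passed without NCD replicate 1. Without any 1 of the remaining libraries neither passed, with adjusted p by edgeR from 0.149 to 0.324 for Cyp4a12a and from 0.0707 to 0.213 for Cyp4a12b. Cyp4a12b passed in each of 8 other settings of the fit that kept all libraries. Adjusted p there ran from 4.36e-14, with no filter, to 0.0497, with a minimum mean of 50 counts. No share of all genes called stands beside these settings, so they show no excess over the table.

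Within the pair the balance differed as well. Cyp4a12b gave 18.5%, 17.9% and 18.4% of the pair's counts in NCD replicates 1, 2 and 3. In HFD it gave 7.09%, 11.2% and 8.12%. With C1 it gave 10.6%, 10.9% and 10.8%, and with C2 6.55%, 15.8% and 11.9%. All 9 libraries on the high-fat diet thus lay below all 3 chow libraries. These shares depend on how reads of the shared stretches were divided between the genes.

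Cyp4a10, a PPARA-induced fatty acid hydroxylase, stood at 77.0, 169 and 156 CPM in NCD and at 252, 250 and 258 CPM in HFD. All HFD libraries lay above all NCD libraries, and the HFD libraries lay close together. The fitted log2 change was 1.12 (standard error 0.31, 95% interval 0.41 to 1.82) with an adjusted p of 0.0648 by edgeR. Without NCD replicate 1, the lowest library, the change was smaller, 0.80, and passed with an adjusted p of 0.00367. Summed with its near copies Cyp4a31 and Cyp4a32 it was 88.6, 189 and 175 CPM in NCD and 273, 273 and 277 CPM in HFD, a log2 change of 1.06 (standard error 0.30, adjusted p = 0.0690 by edgeR), and 0.75 (adjusted p = 0.00534) without NCD replicate 1.

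Cyp4a14, the other classic PPARA-induced member, stood at 198, 118 and 188 CPM in NCD and at 246, 169 and 249 CPM in HFD. The groups overlapped, since HFD replicate 2 lay below 2 NCD libraries, and the log2 change of 0.62 (standard error 0.26) had an adjusted p of 0.157 by edgeR. Cyp4a32, a near copy of Cyp4a10, stood at 8.72, 18.5 and 17.5 CPM in NCD and at 19.4, 20.3 and 18.5 CPM in HFD. Its groups came to within rounding of each other at 18.5 CPM, and its log2 change of 0.59 became 0.26 without NCD replicate 1. Cyp4a31 was the lowest of the family, with 1.40 to 2.84 CPM in NCD and 1.11 to 1.85 CPM in HFD, and as few as 6 counts in 1 library. Its log2 change of -0.09 (95% interval -1.08 to 0.91) turned to 0.21 without NCD replicate 1.

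Among the remaining Cyp4f genes, Cyp4f15 stood at 26.1, 73.6 and 54.5 CPM in NCD and at 73.3, 81.6 and 60.3 CPM in HFD. These overlapped, and its log2 change of 0.69 (standard error 0.36, adjusted p = 0.236 by edgeR) became 0.33 without NCD replicate 1. Cyp4f13, the neighbour of Cyp4f14, stood at 47.6, 41.8 and 46.5 CPM in NCD and at 37.0, 34.6 and 35.1 CPM in HFD, which did not overlap, yet its log2 change was only -0.13 (standard error 0.16, adjusted p = 0.618). Cyp4v3 stood at 472, 685 and 473 CPM in NCD and at 285, 417 and 332 CPM in HFD. Its libraries did not overlap either, and the log2 change was -0.45 (standard error 0.23, adjusted p = 0.230), reaching -0.59 with an adjusted p of 0.0466 without NCD replicate 1.

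The fitted falls are smaller than the ratios of CPM, because the TMM scaling of edgeR raised the NCD library sizes (factors 1.02 to 1.16) and lowered the HFD ones (0.896 to 0.960). With library totals alone the median log2 change of all genes was -0.23, against -0.02 with TMM.

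**Figure D2:**
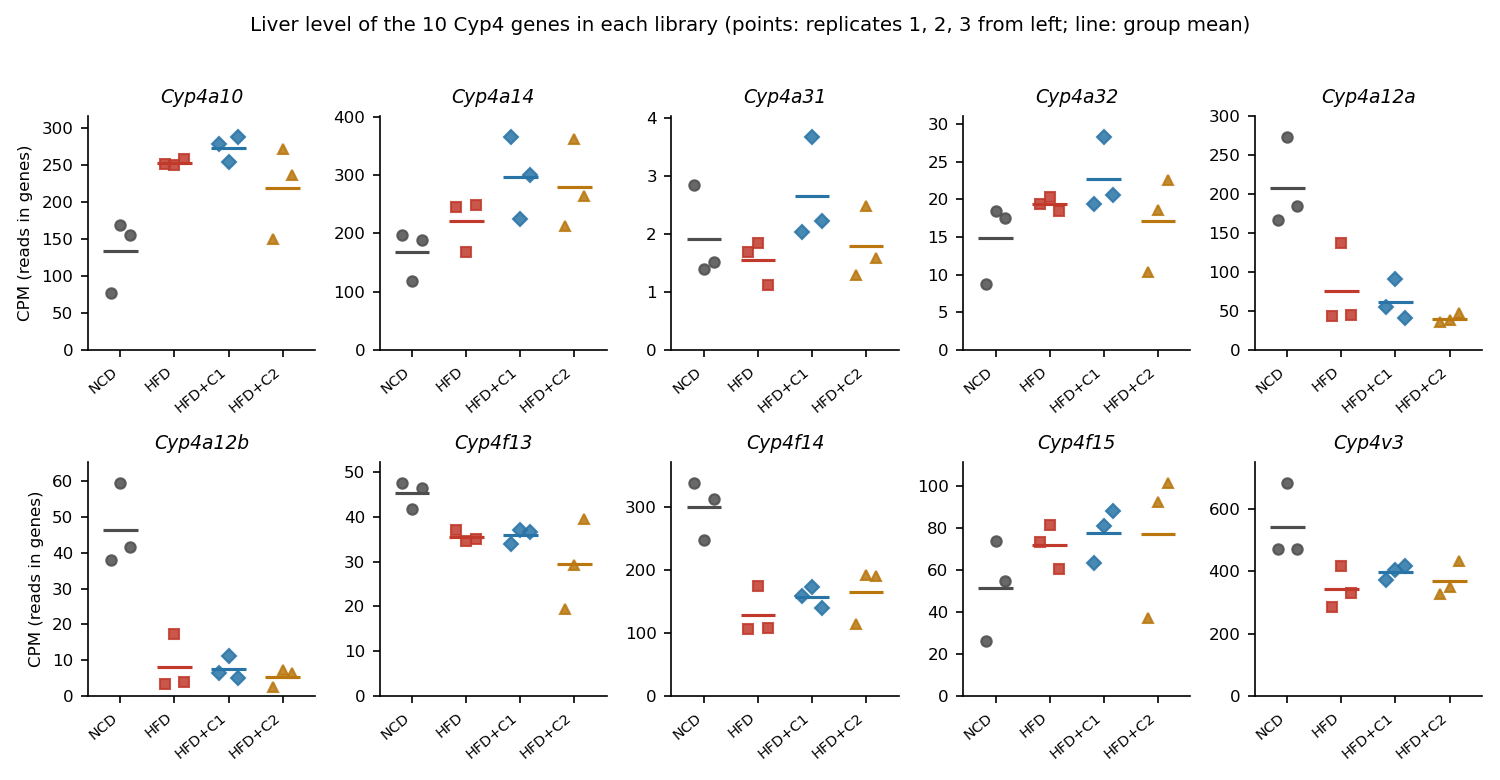
CPM of each of the 10 Cyp4 genes in each of the 12 libraries, with replicates 1, 2 and 3 from left to right in each group and a line at the group mean, each panel on its own linear axis from 0. On this scale, without TMM, Cyp4a12a, Cyp4a12b, Cyp4f13, Cyp4f14 and Cyp4v3 lay lower in every high-fat library than in every NCD library. HFD+C2 replicate 1 was the lowest of its group for all 10 genes.

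Without NCD replicate 1, the library with the fewest reads in genes as a share of its total, 5 Cyp4 genes passed in HFD against NCD: Cyp4a10, higher in HFD, and Cyp4a12a, Cyp4a12b, Cyp4f14 and Cyp4v3, lower. In that fit 13.7% of all genes tested were called. NCD replicate 1 was the lowest NCD library for Cyp4a10, Cyp4a12a, Cyp4a12b, Cyp4a32, Cyp4f15 and, narrowly, Cyp4v3, and the highest for Cyp4a14, Cyp4a31, Cyp4f13 and Cyp4f14. The part of its low Alb level in these differences was not tested. No Cyp4 gene passed without NCD replicate 3, HFD replicate 1 or HFD replicate 3, where 3.55%, 0.165% and 0.179% of all genes were called.

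The next comparisons asked what each compound added to the diet, and both used the same 3 HFD libraries. In HFD+C1 against HFD, 0 of 10 Cyp4 genes were called by edgeR and 1 had an unadjusted p under 0.05, beside 0.0524% of 13358 genes called over the table. For C2, 0 of 10 were called and 0 had an unadjusted p under 0.05, beside 0.0222% of 13503 genes. With limma and DESeq2 the count was 0 in both, where DESeq2 called 0.576% and 0.259% of all genes. With no filter on low counts Cyp4a12a passed with C2 (-0.85, adjusted p = 0.0137), where 0.531% of all genes were called. The groups did not overlap for 1 gene with C1 (12.1% of all genes) and for 0 genes with C2 (13%).

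With C1 the log2 changes of the 10 genes ran from -0.27 for Cyp4a12a to 0.75 for Cyp4a31. Cyp4a31, with 1.68, 1.85 and 1.11 CPM in HFD and 2.04, 3.67 and 2.23 CPM in HFD+C1, was the gene without overlap (standard error 0.30, adjusted p = 0.567 by edgeR). Summed with Cyp4a10 and Cyp4a32, which it resembles, it was 299, 286 and 311 CPM, above the 273 to 277 CPM of HFD, with a change of 0.10 (adjusted p = 0.892). Cyp4a14 stood at 365, 224 and 300 CPM in HFD+C1, of which replicate 2 lay below 2 HFD libraries, and changed by 0.39 with a 95% interval from -0.02 to 0.80. Cyp4a10, at 278, 255 and 288 CPM, changed by 0.09 with a 95% interval from -0.15 to 0.32, the narrowest of the 10. The 95% intervals for Cyp4f13 (-0.26 to 0.23), Cyp4f15 (-0.23 to 0.40), Cyp4v3 (-0.10 to 0.47) and Cyp4f14 (-0.10 to 0.63) were narrower than that of Cyp4a14. Those of Cyp4a12a (-1.07 to 0.53) and Cyp4a12b (-1.15 to 0.93) were wider. Cyp4a12a stood at 55.2, 90.6 and 40.8 CPM and Cyp4a12b at 6.53, 11.0 and 4.93 CPM in HFD+C1, and without HFD replicate 2 their changes turned to 0.44 and 1.00.

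With C2 the log2 changes ran from -0.84 for Cyp4a12a to 0.39 for Cyp4f14. Cyp4a12a stood at 35.8, 37.9 and 47.2 CPM in HFD+C2, close together and beside 2 of the HFD libraries (44.1 and 44.9 CPM). Its interval ran from -1.70 to 0.01 (adjusted p = 0.695 by edgeR), and without HFD replicate 2 the change was -0.12. Cyp4a12b stood at 2.51, 7.12 and 6.39 CPM and changed by -0.56, which became 0.56 without HFD replicate 2. Cyp4a10 stood at 149, 271 and 236 CPM, Cyp4a14 at 212, 361 and 264 CPM and Cyp4a32 at 10.3, 18.6 and 22.5 CPM. Cyp4f14 stood at 114, 192 and 191 CPM and Cyp4f15 at 36.9, 92.4 and 101 CPM, while Cyp4f13 stood at 19.5, 29.3 and 39.5 CPM and Cyp4v3 at 326, 351 and 435 CPM. HFD+C2 replicate 1, with 47.1% of its reads not assigned to a gene, was the lowest of its group for all 10 genes. Without it the change of Cyp4f15 moved from 0.12 to 0.42, that of Cyp4a10 from -0.18 to -0.0026 and that of Cyp4a32 from -0.16 to 0.07, and none was called.

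The compounds were also set against each other at their common dose and duration, HFD+C2 against HFD+C1, as 1 pair. Of the 10 Cyp4 genes 0 were called by edgeR, 0 had an unadjusted p under 0.05 and 0 had groups without overlap, beside 0% of 13229 genes called and 11.6% without overlap over the table. Over all genes 608 had an unadjusted p under 0.05, and DESeq2 called 0.0227%, with none of the 10 among them. The log2 changes ran from -0.56 for Cyp4a12a (95% interval -1.18 to 0.05, adjusted p = 0.841) to 0.14 for Cyp4f14 (-0.33 to 0.60). For Cyp4a10 the difference was -0.25 (-0.72 to 0.22), and for Cyp4a14 -0.01 (-0.56 to 0.54). The widest intervals were those of Cyp4a12b (-1.32 to 0.45) and Cyp4a31 (-1.27 to 0.30), so the absence of a call does not show that the compounds acted alike.

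**Figure D3:**
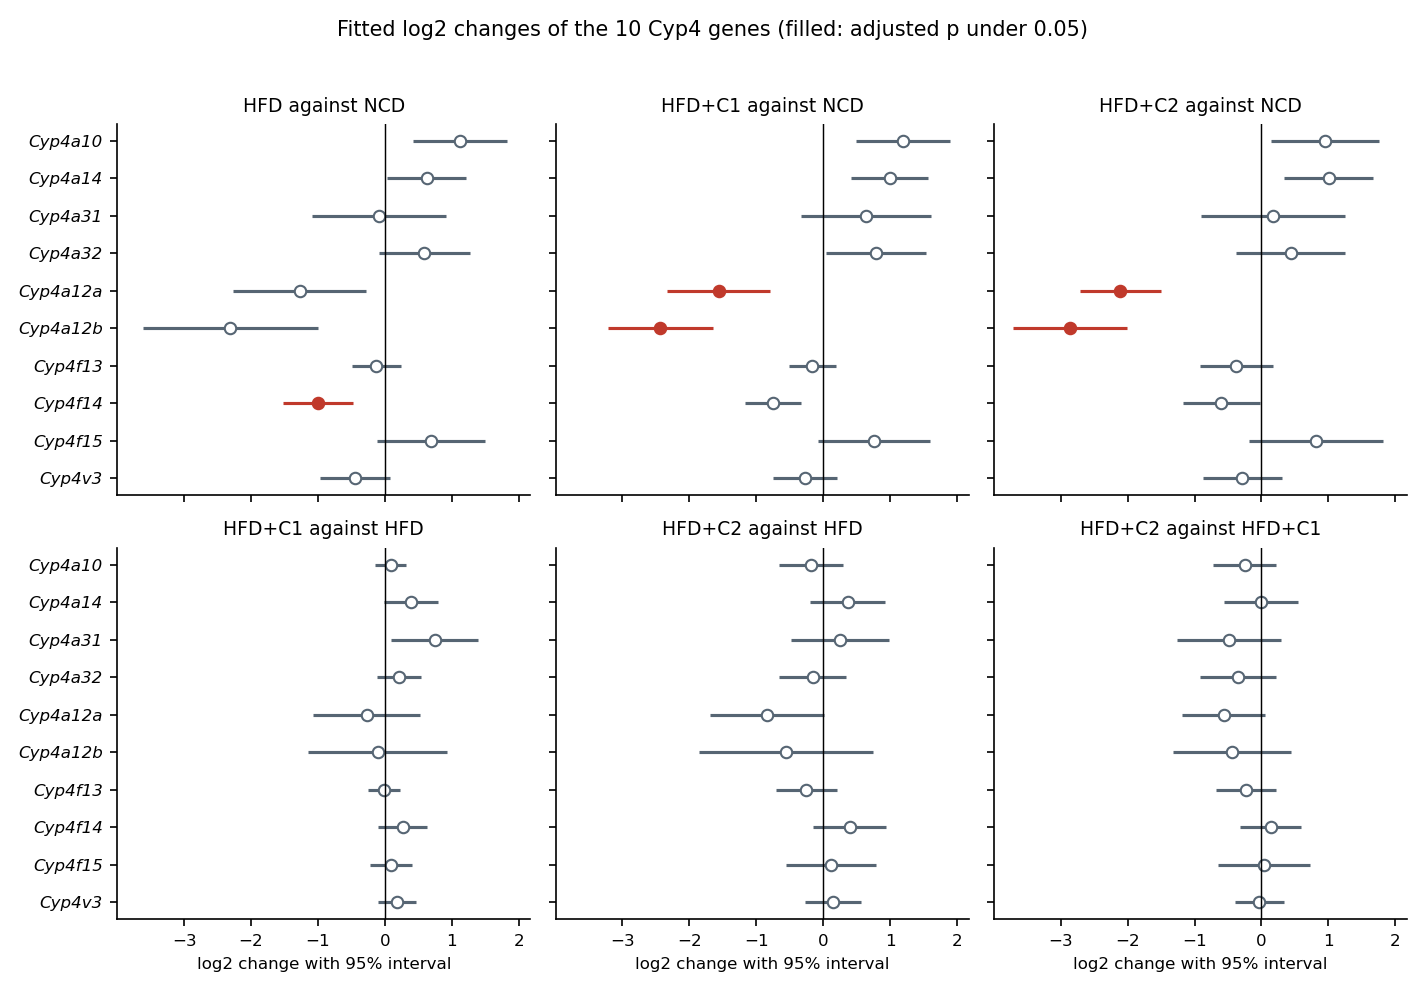
Fitted log2 change (point) with its 95% interval (line) for each Cyp4 gene in the 6 comparisons, filled and red where the adjusted p was under 0.05. Calls stood at Cyp4f14 for the diet and at Cyp4a12a and Cyp4a12b for each compound group against NCD, and the 3 panels without NCD hold none.

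Each compound group was then set against chow. These comparisons share the NCD libraries with the diet comparison and are not independent of it. In HFD+C1 against NCD, 2 of 10 genes were called, both lower, beside 3.4% of 13534 genes (1.93% lower): Cyp4a12b fell by 2.43 on the log2 scale (standard error 0.34, adjusted p = 0.0183 by edgeR) and Cyp4a12a by 1.56 (standard error 0.34, adjusted p = 0.0486). In HFD+C2 against NCD the same 2 genes were called, beside 1.6% of 13691 genes (1.07% lower): Cyp4a12b fell by 2.86 (standard error 0.38) and Cyp4a12a by 2.11 (standard error 0.27), each with an adjusted p of 0.0206. The summed counts of the pair fell by 1.69 (adjusted p = 0.0436) with C1 and by 2.22 (adjusted p = 0.0187) with C2, the latter a level 4.67-fold lower than chow.

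Each high-fat library of any group had less Cyp4a12a than each NCD library, with 137 CPM in HFD replicate 2 the highest against 167 CPM in NCD replicate 1 the lowest. For Cyp4a12b the corresponding values were 17.2 CPM and 37.9 CPM. With C1 the Cyp4a12b call was lost without NCD replicate 3 (adjusted p = 0.0561), HFD+C1 replicate 1 (0.118) or HFD+C1 replicate 3 (0.115), and the Cyp4a12a call was lost without each library except NCD replicate 1, with adjusted p from 0.0607 to 0.214. With C2 the Cyp4a12b call was lost without each library except NCD replicate 1 (adjusted p from 0.0504 to 0.105), and the Cyp4a12a call was lost without NCD replicate 3 (0.0558) or HFD+C2 replicate 1 (0.0796), 2 (0.133) or 3 (0.103). In those fits the log2 changes ran from -1.95 to -1.29 and from -2.48 to -2.20 with C1, and from -2.17 to -2.06 and from -3.14 to -2.56 with C2, for Cyp4a12a and Cyp4a12b respectively.

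Cyp4f14, called for the diet, was 159, 173 and 139 CPM in HFD+C1 and 114, 192 and 191 CPM in HFD+C2, all below the lowest NCD library at 247 CPM. Its log2 changes against NCD were -0.75 (standard error 0.18, adjusted p = 0.0611 by edgeR) and -0.60 (standard error 0.26, adjusted p = 0.212), neither called. Cyp4a10 changed by 1.19 (adjusted p = 0.0661) with C1 and 0.95 (adjusted p = 0.170) with C2, and Cyp4a14 by 0.99 (adjusted p = 0.0638) and 1.00 (adjusted p = 0.102). On CPM without TMM, groups did not overlap for 8 of 10 genes with C1 and 6 of 10 with C2. Over all genes tested on that scale the shares were 37.7% (26.1% lower, 11.7% higher) with C1 and 32.8% (25.7% lower, 7.09% higher) with C2. How many stay apart with TMM was not counted. Of the 8, 5 were lower and 3 higher with C1, and of the 6, 5 were lower and 1 higher with C2. Without NCD replicate 1, 5 genes passed with C1, adding Cyp4a10 (0.87), Cyp4a14 (1.05) and Cyp4f14 (-0.72) to the Cyp4a12 pair, where 12.1% of all genes were called. Without NCD replicate 1 and HFD+C2 replicate 1 together, 5 passed with C2, adding Cyp4a10 (0.80), Cyp4a14 (1.17) and Cyp4f15 (0.76), where 9.65% of all genes were called. That fit takes 1 library from each group and was run for this comparison only. Without NCD replicate 1 alone, Cyp4a10, Cyp4a14 and Cyp4f15 did not pass with C2 (adjusted p = 0.293, 0.163 and 0.571 by edgeR).

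Genes that act with the Cyp4 enzymes were followed through lists, whose counts stand beside 6.14% of all genes called with the diet. Against NCD the share was 3.4% with C1, or 12.1% without NCD replicate 1, and 1.6% with C2. For the other fits of these compound comparisons with 1 library left out, no share of all genes is given. The ranges of list counts there show no excess over the table. Of 11 omega-oxidation partners tested, the electron donors and the dehydrogenases that take the hydroxylated product on, 1 was called in HFD against NCD. Por, the reductase that feeds electrons to microsomal P450 enzymes, stood at 174, 228 and 156 CPM in NCD and at 62.9, 82.3 and 70.6 CPM in HFD, and fell by 1.15 on the log2 scale (standard error 0.20, adjusted p = 0.0250 by edgeR). It fell by 0.94 in HFD+C1 against NCD (adjusted p = 0.0482 by edgeR), and its change in HFD+C2 against NCD was -0.64 (adjusted p = 0.273), where the list had 0 calls. No gene of the list was called with the diet without any 1 of HFD replicates 1, 2 or 3, nor with C1 without any 1 library other than NCD replicate 1. The list's median change with the diet was -0.12, beside -0.02 for all genes. Of 16 genes of peroxisomal dicarboxylic acid oxidation, 1 was called: Abcd2, a peroxisomal fatty acid transporter, rose by 2.49 (standard error 0.26, adjusted p = 0.00422), and the list's median was 0.26. Without HFD replicate 1 the list had 0 called genes. Abcd2 also rose against NCD with C1 (2.61) and with C2 (2.57), again as the list's only call, and with C2 the list had 0 calls without NCD replicate 3, HFD+C2 replicate 2 or HFD+C2 replicate 3.

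Of 25 genes of the PPARA list, which holds Ppara and its classic targets other than Cyp4 genes, 7 rose and 1 fell with the diet, with a median of 0.26. Those named by size of change were Cidec (4.51), a lipid droplet protein, Vnn1 (1.97), the hormone Fgf21 (1.87) and the mitochondrial fatty acid gatekeeper Cpt1a (1.85), all higher, and the pyruvate dehydrogenase kinase Pdk4 (-1.86), lower. Ppara itself rose by 1.14 (adjusted p = 0.0418 by edgeR) and the lipase Mgll by 1.02, and both were named after their values were seen. Cyp4a10 (1.12) and Cyp4a14 (0.62), also classic PPARA targets, shared the direction of the median but were not called. Leaving out NCD replicate 1 raised the count from 8 to 12, leaving out NCD replicate 3 or HFD replicate 2 lowered it to 2, and leaving out either remaining HFD library lowered it to 1. The share of all genes called moved with it, to 13.7% without NCD replicate 1 and to 0.94% or less without any 1 HFD library. Against NCD, 4 genes of the list rose and 1 fell with C1, and 1 rose and 1 fell with C2, beside 3.4% and 1.6% of all genes called. Those counts of calls ran from 0 to 11 with C1 and from 0 to 4 with C2 when 1 library was left out.

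Of 18 tested genes of the male-biased list, 7 fell and 0 rose with the diet, with a median of -1.21. The largest were Selenbp2 (-3.48), Serpina1e (-2.98), Cyp7b1 (-1.76), Nudt7 (-1.72), Elovl3 (-1.61) and Gstp1 (-1.52). The changes of Cyp4a12a (-1.27) and Cyp4a12b (-2.31), which the list leaves out, lay on the same side. Selenbp2 was 52.1 CPM in HFD replicate 2 against 13.8 and 14.7 CPM in HFD replicates 1 and 3, the same library that was high in Cyp4a12a and Cyp4a12b. Without HFD replicate 1 or HFD replicate 3 the count was 0, without NCD replicate 3 it was 4, and without NCD replicate 1, where 13.7% of all genes were called, it was 12. Against NCD, 9 genes of the list fell with C1 and 4 with C2, and 0 rose, beside 3.4% and 1.6% of all genes called. Without any 1 library these counts ran from 0 to 14 with C1 and from 0 to 5 with C2. Of 13 tested female-biased genes 4 rose and 2 fell, Cyp2b13 (4.97) and Cyp2b9 (3.87) most among those that rose. Leaving out NCD replicate 3 brought that count of 6 to 4, and leaving out HFD replicate 1, 2 or 3 brought it to 1, 3 or 2. Against NCD, 4 rose and 1 fell with C1, and 3 rose and 0 fell with C2, beside the same shares of 3.4% and 1.6%. These counts of calls ran from 1 to 6 and from 0 to 2 when 1 library was left out. Reads of the Y-linked gene Ddx3y were present in all 12 libraries (236 to 1042 counts), and Xist, the X-inactivation RNA of females, had at most 30 counts in any library.

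Of 12 growth hormone and STAT5 regulators tested, whose pathway sets sex-biased expression in liver, 0 were called with the diet by edgeR. Jak2 (0.73, adjusted p = 0.0646) and Igf1 (0.78, adjusted p = 0.0912) were nearest. DESeq2 called 2, but its share over all genes is not given for the diet, so that count shows no excess over the table. The feedback gene Cish was called in HFD+C2 against HFD (-3.65, adjusted p = 0.00753 by edgeR), from 10.6, 22.5 and 10.4 CPM to 0.951, 1.13 and 1.24 CPM, and was again highest in HFD replicate 2. With C1 it was also below every HFD library, at 2.49, 0.398 and 4.88 CPM, where it was not called. In NCD it stood at 0.609, 13.3 and 1.51 CPM. Its list had 0 calls without HFD replicate 1 or HFD+C2 replicate 3. Socs2, another feedback gene, was called in HFD+C1 against NCD (-2.74, adjusted p = 0.00952), and the list had 0 calls there without any 1 of the HFD+C1 libraries. Of 10 enzymes of eicosanoid and fatty acid signalling tested, Alox15 alone was called with the diet, lower (adjusted p = 0.0248), at a mean of 1.91 CPM in NCD and 0.105 CPM in HFD, near the floor, and the list had 0 calls without NCD replicate 3 or any 1 of the HFD libraries. Of 11 other Cyp4 genes in the tables, 3 had enough counts for the diet comparison and 0 were called, Cyp4f17 (-0.67, adjusted p = 0.105) and Cyp4b1 (-0.47) being nearest. In the HFD+C1 and HFD+C2 against HFD comparisons, the omega-oxidation, peroxisomal, PPARA, male-biased and female-biased lists had 0 called genes, with medians from -0.10 to 0.27.

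**Figure D4:**
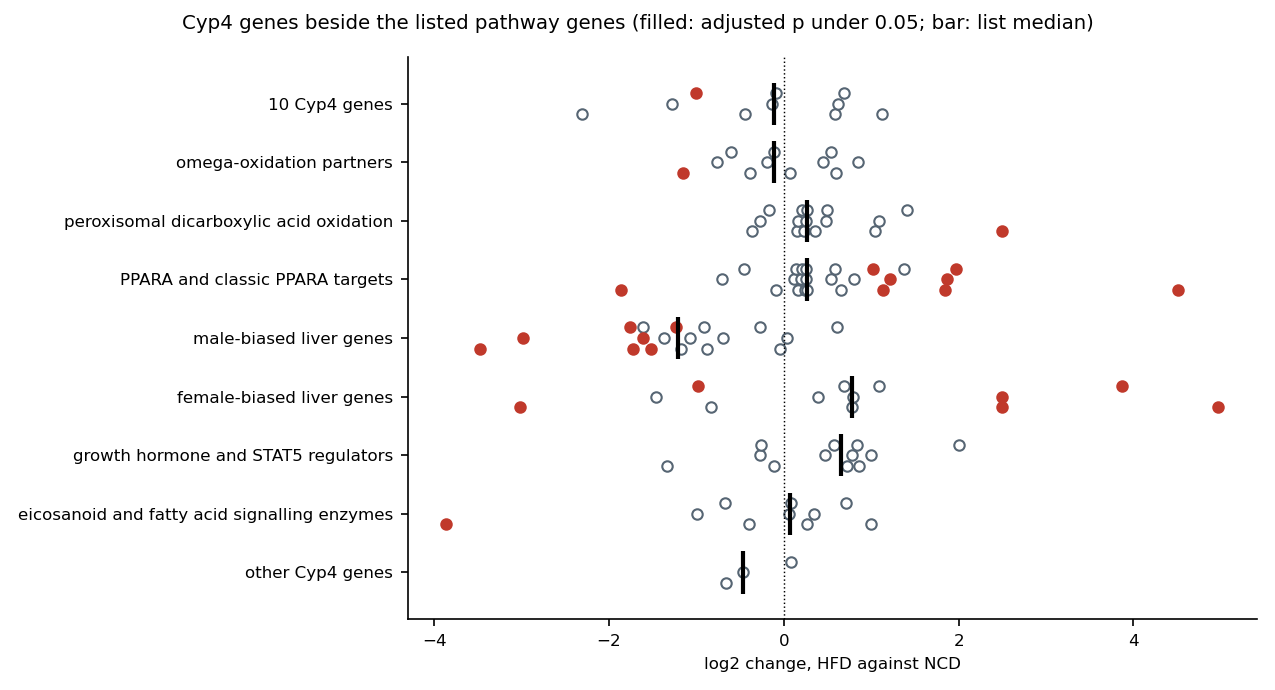
Fitted log2 change in HFD against NCD for the 10 Cyp4 genes and for every tested gene of the 8 lists, 1 point per gene, filled and red where the adjusted p was under 0.05, with a bar at each median. The male-biased genes centre at -1.21 and the PPARA list at 0.26, while the Cyp4 genes spread from -2.31 to 1.12 on both sides of 0.

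Cell type markers were checked beside these values. The summed level of 4 adipocyte markers was 0.934 to 1.32 CPM in NCD and 20.1 to 23.0 CPM in HFD, nearly all of it Cfd, while Adipoq was at most 0.0397 CPM in HFD. The 4 kidney tubule markers (Slc34a1, Kap, Umod and Lrp2), of an organ that also expresses Cyp4a genes, summed to 2.25 to 13.3 CPM in NCD and to at most 1.17 CPM in the other 9 libraries. The highest was NCD replicate 1, where Lrp2 gave 10.4 CPM, and Kap was at 0 in all libraries. Summed markers of Kupffer cells and macrophages were 96.1 to 116 CPM in NCD, 92.1 to 128 CPM in HFD, 158 to 196 CPM in HFD+C1 and 125 to 217 CPM in HFD+C2. The part of these markers in the Cyp4 values was not tested.

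Across the 12 libraries, the genes outside the family whose pattern was most like each member were found by the smallest root mean square difference between centred log2(CPM + 1) values, among the 10122 genes that averaged 50 counts or more. For Cyp4a12a the nearest was Susd4 (0.34, Pearson's r = 0.943), and for Cyp4a12b they were Serpine2 (0.53) and Cdh1 (0.54). For Cyp4a10 they were Haghl (0.12, r = 0.976) and Cyp2d26 (0.13, r = 0.969), for Cyp4f14 Rbbp4 (0.18) and Gm36264 (0.20), and for Cyp4f15 Xdh and Slc26a1 (both 0.12). Cyp4v3 was nearest to Rbbp5 (0.09) and Atp11b (0.09), Cyp4f13 to Retreg3 and Dmwd (both 0.10), Cyp4a32 to Sh3bgrl3 (0.12) and Ctsa (0.13), Cyp4a14 to Med9 and Slc17a1 (both 0.26), and Cyp4a31 to Sdc3 and Atp8b4 (both 0.20). Within the family the closest pair was Cyp4a32 and Cyp4f15 (0.24). These likenesses are over 12 libraries that share groups and depth, and are given as a description.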

How the data were processed

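RNA-seq of mouse liver gave 12 libraries in 4 groups of 3. The deposited values are whole-number read counts per gene, with no normalization, although their names call them normalized. Reads were trimmed with Trimmomatic 0.39 and aligned with STAR 2.7 to mm10, and DESeq2 was used, per the submitters' processing notes. The annotation, strand setting and treatment of reads that map to several places are not given in the sources used here. The 3 tables repeat the HFD columns, with 0 differing cells. The 4 rows that name no gene were left out of library sizes and tests and held 27.3% to 58.2% of reads.

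Each comparison was fitted on its own 6 libraries with edgeR 4.0.16 (R 4.3.3), TMM scaling, genes averaging at least 10 counts, and the quasi-likelihood test, adjusted over all genes tested. The fit was tested on simulated data. The standard error is the log2 change divided by the root of the F statistic, and intervals are 95%. Alternatives were median-ratio size factors, library totals alone, no filter, a minimum mean of 50 counts, DESeq2 1.42.0, limma 3.58.1 on log2(CPM + 1), a replicate block, 1 fit of all 12 libraries, and leaving out libraries. Printed CPM values are counts over reads in genes, without TMM, and overlap between groups was judged on such values.

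All 10 members are named. Of each list, up to 6 called genes are named by size of change, or the 2 with the smallest p where none was called, for the diet in full and otherwise as calls only. Some genes that the rule names are not reported here. Members and lists were chosen with earlier results of these data known. Coding sequences come from GENCODE M21 and promoters from RefSeq, both on GRCm38.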

Additional observations from a re-analysis of the deposited data

Results flagged for a closer look

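Reads in the rows that name no gene enter no comparison, and some were more frequent than in the control libraries. Reads mapping to several places made up 7.34%, 7.50% and 7.28% of all reads in HFD replicates 1, 2 and 3, above the highest NCD library, at 6.28%. In HFD+C2 replicate 1, 9.04% of reads were ambiguous between genes, against at most 4.96% in HFD. In the same library 10.9% of reads fell in no annotated feature, against at most 6.84% in HFD, and 21.9% were unmapped, against at most 16.6%. Their part in the Cyp4 values was not tested.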

How the results depend on the processing

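With 3 libraries a group, calls near the threshold moved with the settings, and the cause was not tested. In HFD against NCD the Cyp4 genes called numbered 2 with median-ratio size factors, library totals alone, a minimum mean of 50 counts or the replicate block, 4 with DESeq2 or 1 fit of all libraries, and 7 with no filter, and 0 to 5 when each library was left out. In HFD+C1 against NCD they numbered 5 with DESeq2, the replicate block or 1 fit, 6 with no filter, and 0 to 5 with a library left out. For HFD+C2 against NCD the counts were 5 with no filter, 4 with 1 fit, 5 without NCD replicate 1 and HFD+C2 replicate 1 together, and 0 to 2 with a library left out, and in HFD+C2 against HFD 1 with no filter. Over all genes, 13.7% (diet) and 12.1% (HFD+C1 against NCD) were called without NCD replicate 1. The share was 9.65% without both libraries in HFD+C2 against NCD, and 0.531% with no filter in HFD+C2 against HFD. No share of all genes stands beside the other full-library counts, so they describe the 10 genes and show no excess over the table. Correlations between the deviations of same-numbered libraries ran from -0.09 to 0.25, the highest for replicate 1 in HFD+C1 against NCD. With 3 libraries a group these values cannot settle whether same-numbered libraries share a batch. With the block the genes called for the diet were Cyp4a12a and Cyp4a12b, not Cyp4f14. Under the replicate block the summed Cyp4a12 pair passed for the diet (-1.59), as did the Cyp4a10, Cyp4a31 and Cyp4a32 sum in HFD+C1 against NCD (1.24).

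Signs turned for small changes. For the diet, no filter gave 0.11 for Cyp4a31 and 0.043 for Cyp4f13. In HFD+C1 against HFD, Cyp4a12b was 0.13 with limma and 0.14 with the replicate block, and Cyp4f13 0.0085 with library totals. In HFD+C2 against HFD+C1, Cyp4a14 was 0.0056 at a minimum mean of 50, and Cyp4f15 -0.0081 with library totals and -0.047 with limma and -0.046 with the block. Cyp4a31 was -0.11 in HFD+C2 against NCD with library totals.

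Leaving out each library gave these ranges. For the diet they were -0.23 to 0.21 for Cyp4a31, 0.75 to 1.26 for the Cyp4a10 sum and -2.16 to -1.15 for the Cyp4a12 sum. In HFD+C1 against HFD they were -0.66 to 0.44 for Cyp4a12a, -0.51 to 1.00 for Cyp4a12b, -0.65 to 0.49 for their sum, -0.061 to 0.042 for Cyp4f13 and -0.024 to 0.22 for Cyp4f15. In HFD+C2 against HFD they were -0.92 to 0.56 for Cyp4a12b, -0.079 to 0.39 for Cyp4a31, -0.32 to 0.068 for Cyp4a32, -0.062 to 0.42 for Cyp4f15 and -0.37 to 0.0052 for the Cyp4a10 sum. In HFD+C2 against HFD+C1 they were -0.25 to 0.16 for Cyp4a14 and -0.14 to 0.34 for Cyp4f15. In HFD+C1 against NCD the Cyp4a10 sum ran from 0.84 to 1.35 and the Cyp4a12 sum from -2.08 to -1.42. For HFD+C2 against NCD the Cyp4a12 sum ran from -2.41 to -1.97 and Cyp4a31 from -0.13 to 0.48.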
